A study of Mus musculus with 10 samples.

Results

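Adgrg6, Igfbp7, Ngfr and Snord13 were chosen by the measured difference in their RNA levels between mouse embryonic stem cells (ESCs) lacking DGCR8 and ESCs lacking DDX6, and these 4 genes of the 51467 listed in the count table are described here. All 4 were among the 11683 genes that reached 3 CPM in 3 or more libraries, where CPM is the count of a gene relative to all counts of its library after scaling for composition. Igfbp7 met that minimum through its DDX6 KO libraries alone. The difference between the knockouts, and each knockout's difference from wild type, are therefore given as descriptions without a test. Tests were kept for contrasts that the choice did not use directly, namely both knockouts pooled against wild type and 1 DDX6 KO clone against the other.

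RNA was measured in 10 libraries by QuantSeq, a method that primes on poly(A) and sequences transcript 3′ ends, from ESCs grown in Knockout DMEM with 15% serum, LIF and 2i (PD0325901 and CHIR99021). Wild-type cells (WT, the V6.5 line) gave 3 libraries, Dgcr8 knockout cells (DGCR8 KO) gave 3, and Ddx6 knockout cells (DDX6 KO) gave 4, which were 2 from each of 2 clones. The Ddx6 clones were made from V6.5 by CRISPR-Cas9, and the study describes a single-nucleotide insertion in one and a large deletion in the other. The Dgcr8 KO line came from earlier work according to the study, whereas the labels give CRISPR for all knockout cells, so its parent line cannot be taken to be V6.5. Nothing in the labels says that libraries of a group came from separate cultures, so p-values measure only the spread between these libraries. Total counts ran from 2131156 to 4745083 per library, at which 3 counts, taken as the floor, correspond to 0.669 to 1.44 CPM.

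DGCR8 is the RNA-binding partner of the nuclease Drosha, and together they cut miRNA hairpins out of primary transcripts, so that ESCs without DGCR8 lack nearly all mature miRNAs. DDX6 is a cytoplasmic RNA helicase that joins the miRNA effector complex and the deadenylation machinery to translational repression and decapping. The 4 genes belong to unrelated families. Adgrg6 encodes an adhesion G protein-coupled receptor that raises cAMP and is needed for Schwann cells to myelinate axons. Igfbp7 encodes a secreted protein related to the insulin-like growth factor (IGF) binding proteins. Ngfr encodes the p75 neurotrophin receptor, a marker of neural crest cells. Snord13 encodes U13, a box C/D small nucleolar RNA (snoRNA) that guides an acetylation of 18S ribosomal RNA by NAT10.

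The labels were first checked on the targeted genes. Dgcr8 stood at 56.1 CPM ± 8.41 (SD, n = 3) in WT and 11.6 CPM ± 3.41 (SD, n = 3) in DGCR8 KO. Ddx6 stood at 538 CPM ± 42.3 (SD, n = 3) in WT, and in DDX6 KO clone 1 gave 149 and 135 CPM and clone 2 gave 39.0 and 25.7 CPM. Every knockout library lay below every WT library for its own target. The 8 pluripotency markers summed to 3828 to 4251 CPM in WT, 3313 to 3747 CPM in DGCR8 KO and 3777 to 4104 CPM in DDX6 KO. None was called higher or lower in DGCR8 KO, while Sall4 alone was called lower in DDX6 KO. By an adjusted p under 0.05 alone (limma), 5 were lower and 1 higher in DGCR8 KO against WT, and 2 lower and 1 higher in DDX6 KO. Markers of other cell types that ES cultures can hold were partly at or near 0 and partly expressed, and they are given further on with their values.

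Adgrg6 (ENSMUSG00000039116) lies on the minus strand at chr10:14402583-14545659 of GRCm38. Its RNA was abundant in DGCR8 KO only. The WT libraries held 4.80, 5.45 and 4.24 CPM, the DGCR8 KO libraries 57.6, 59.7 and 62.7 CPM, and the DDX6 KO libraries 0.733 and 0.348 CPM in clone 1 and 1.76 and 0 CPM in clone 2. No 2 of the groups overlapped, and the lowest DGCR8 KO library exceeded the highest WT library 10.6-fold. The choice of the genes favours a lack of overlap between the knockouts. The share of all tested genes without overlap is not given, here or for the genes below, so nothing is read from it. The mean was 60.0 CPM ± 2.59 (SD, n = 3) in DGCR8 KO against 4.83 CPM ± 0.608 (SD, n = 3) in WT, which is 12.4 times the WT level. In DDX6 KO the mean of 0.710 CPM ± 0.761 (SD, n = 4) rested on 8 counts over 4 libraries, close to the floor. The fitted log2 fold change against WT was 3.62 (SE 0.30) in DGCR8 KO and -3.11 (SE 0.63) in DDX6 KO. Between the knockouts it was 6.73 (SE 0.58). The DDX6 KO values moved with the setting. The fold change against WT was -1.87 with limma-trend and -2.32 without the second library of clone 2, which held 0 counts, and that between the knockouts was 5.26 and 5.94.

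The ESCC miRNAs, which share 1 seed and are the most abundant miRNA family of ESCs, are among the molecules that DGCR8 KO cells lack. Other members with this seed, such as miR-302b-3p and miR-302d-3p on chromosome 3, are not shown. The mature sequences of 3 members are shown because the seed was looked for in the 3′ UTRs of the chosen genes (RefSeq, GRCm38.p6, 5′ to 3′, seed bases 2 to 8 in capitals), and these 3 lie on chromosome 7:
mmu-miR-291a-3p: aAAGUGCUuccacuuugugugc
mmu-miR-294-3p: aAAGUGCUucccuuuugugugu
mmu-miR-295-3p: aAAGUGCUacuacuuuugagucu

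The longest annotated 3′ UTR of each coding gene was searched for AGCACTT, complementary to seed bases 2 to 8, and GCACTTA, complementary to bases 2 to 7 with an A after it, on the transcript strand. Adgrg6 held 1 match, at chr10:14405430-14405436, which starts at base 35 of a 3′ UTR of 2888 bases and is shown in capitals with its surroundings:
Adgrg6: atcactcagacAGCACTTccacggacaag

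No match was present in the 240 bases of Igfbp7 or the 1985 bases of Ngfr. Of 20944 genes with an annotated 3′ UTR, 17.6% held at least 1 match, and a match is a stretch of letters that says nothing of binding. In the 300 bases around the RefSeq start, Adgrg6 held 38 CpG dinucleotides, Igfbp7 33 and Ngfr 23, against a median of 7 over 32851 promoter windows. Of those windows 95.6% held no more than Adgrg6, 92.3% no more than Igfbp7 and 80% no more than Ngfr, and no test was made of this.

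Igfbp7 (ENSMUSG00000036256, chr5:77349240-77408041, minus strand) was near the floor everywhere but in DDX6 KO. WT libraries held 0, 2.73 and 2.45 CPM and DGCR8 KO libraries 0, 2.04 and 0.407 CPM. The DDX6 KO libraries held 28.2 and 40.7 CPM in clone 1 and 26.4 and 66.0 CPM in clone 2. WT and DGCR8 KO overlapped, and the lowest DDX6 KO library was 9.68 times the highest WT library. The mean in DDX6 KO, 40.3 CPM ± 18.3 (SD, n = 4), compares with 1.73 CPM ± 1.50 (SD, n = 3) in WT and 0.814 CPM ± 1.08 (SD, n = 3) in DGCR8 KO, which rest on 19 and 7 counts. The fitted log2 fold change was 4.70 (SE 0.86) for DDX6 KO against WT and -1.38 (SE 1.39) for DGCR8 KO against WT, the latter with a 95% interval from -4.30 to 1.54. Between the knockouts it was -6.08 (SE 1.12). These values moved with single libraries. DDX6 KO against WT was 3.84 without WT replicate 1 and 5.34 without WT replicate 3, DGCR8 KO against WT ran from -2.27 to -0.30 with 1 library left out, and the knockouts differed by -5.01 without DGCR8 KO replicate 1 and by -6.98 without replicate 2. With limma-trend the values were 4.05 for DDX6 KO against WT, -0.53 for DGCR8 KO against WT and -4.58 between the knockouts. The end of Igfbp7 overlaps by a few bases the end of Polr2b, a subunit gene of RNA polymerase II on the other strand, but counting used strand, and Polr2b itself stood at 219 to 279 CPM in the group means.

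Ngfr (ENSMUSG00000000120, chr11:95568818-95587735, minus strand) showed the smallest and least even separation. WT libraries held 26.4, 21.1 and 28.5 CPM, DGCR8 KO libraries 57.6, 28.8 and 79.4 CPM, and DDX6 KO libraries 16.1 and 13.9 CPM in clone 1 and 17.9 and 13.2 CPM in clone 2. The groups did not overlap, but the second DGCR8 KO library exceeded the highest WT library by a factor of only 1.01. The WT mean was 25.4 CPM ± 3.82 (SD, n = 3), that of DGCR8 KO was 55.3 CPM ± 25.4 (SD, n = 3), and that of DDX6 KO was 15.3 CPM ± 2.17 (SD, n = 4). The fitted log2 fold change was 0.98 (SE 0.27) for DGCR8 KO and -0.75 (SE 0.31) for DDX6 KO against WT. Between the knockouts it was 1.73 (SE 0.29), the smallest size of the 4 genes.

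Snord13 (ENSMUSG00000088252, chr8:31149864-31149967, minus strand) is the only one of the 4 genes that encodes a small RNA. Gm26205, a predicted snoRNA of 134 bases at chr5:121205010-121205143 (plus strand, GRCm38), is shown because its levels followed those of Snord13 most closely of all genes tested, and its capitals mark the ACA box that lies 3 bases before the end in snoRNAs of the H/ACA class:
Gm26205: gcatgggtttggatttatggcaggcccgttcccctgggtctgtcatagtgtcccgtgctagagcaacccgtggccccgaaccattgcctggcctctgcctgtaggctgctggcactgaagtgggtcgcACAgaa

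WT libraries held 244, 235 and 230 CPM of Snord13. DGCR8 KO libraries held 17.5, 6.11 and 13.8 CPM, all of them below every WT library, and the mean of 12.5 CPM ± 5.80 (SD, n = 3) was 5.27% of the WT mean of 237 CPM ± 7.33 (SD, n = 3). DDX6 KO libraries held 399 and 467 CPM in clone 1 and 538 and 414 CPM in clone 2, all above every WT library, with a mean of 455 CPM ± 62.7 (SD, n = 4) or 192% of WT. The fitted log2 fold change was -4.34 (SE 0.27) for DGCR8 KO, 0.93 (SE 0.13) for DDX6 KO and -5.28 (SE 0.26) between the knockouts. Leaving out the second DGCR8 KO library, the lowest, gave -3.88 for DGCR8 KO against WT.

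**Figure D1:**
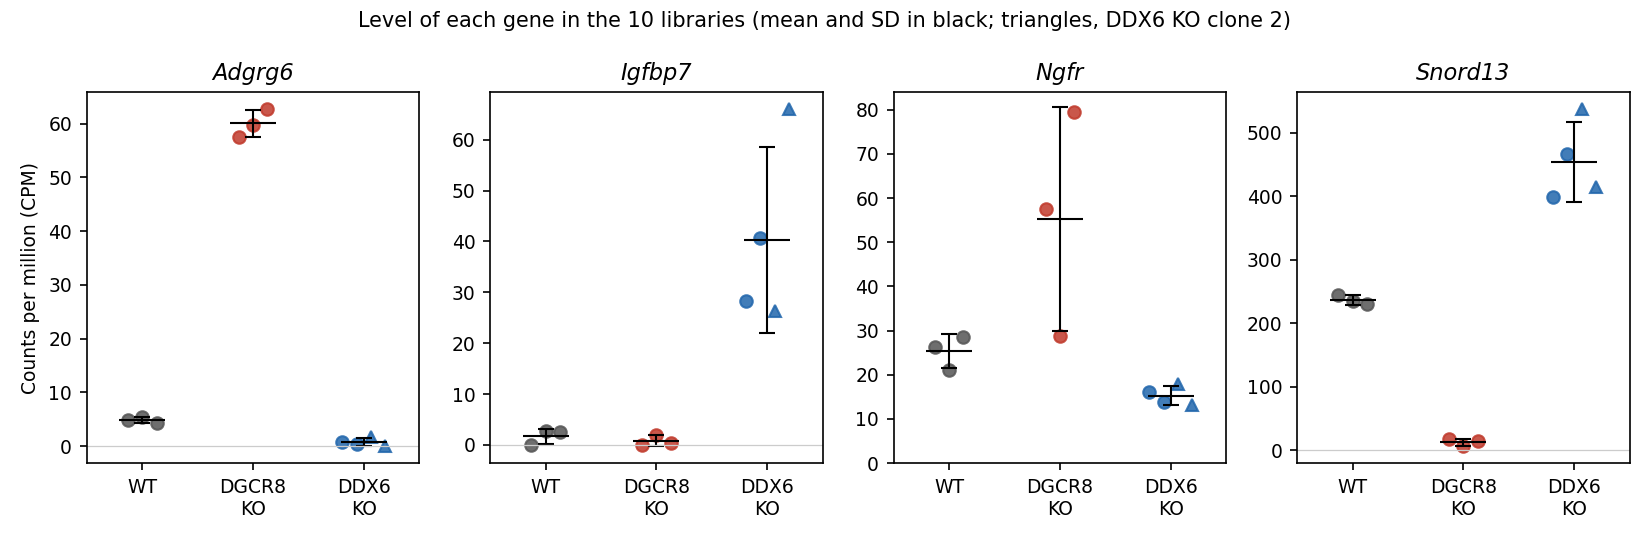
Level of each gene in CPM (vertical axes, linear and separate) in the 3 WT, 3 DGCR8 KO and 4 DDX6 KO libraries; points are libraries, black bars the mean and SD, and triangles DDX6 KO clone 2. Adgrg6 is high in DGCR8 KO, Igfbp7 in DDX6 KO, and Snord13 is lowest in DGCR8 KO and highest in DDX6 KO, while the Ngfr libraries of WT and DGCR8 KO nearly meet.

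By the level of the gene the groups stood in 3 orders. DGCR8 KO was highest, WT between and DDX6 KO lowest for Adgrg6 and Ngfr. The order was the opposite for Snord13. For Igfbp7 DDX6 KO was highest, and WT and DGCR8 KO did not differ beyond their spread. Across all tested genes 17.1% were called between the knockouts, where called means an adjusted p-value by limma (two-sided, corrected over all tested genes after Benjamini and Hochberg) below 0.05 together with a change of more than 1 on the log2 scale. That contrast chose the 4 genes, so nothing is read from their fold changes in it.

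The first test asked whether the knockouts, weighted by their 3 and 4 libraries, differed from WT on average. With these weights the pooled mean would be uncorrelated with the difference that chose the genes if all libraries varied equally. Their SEs against WT were unequal, at 0.27 in DGCR8 KO and 0.13 in DDX6 KO for Snord13, and 0.30 and 0.63 for Adgrg6. The test is thus not wholly free of the choice, and its p-values carry that limit. The test was read for Adgrg6, Ngfr and Snord13, and of these 1 was called, beside 9.09% of all tested genes and 3.23% called lower. Snord13 fell by 1.33 on the log2 scale (SE 0.16, adjusted p = 6.10e-06 by limma), a value that averages a lower level in every DGCR8 KO library with a higher one in every DDX6 KO library. Without any 1 of the DGCR8 KO libraries the size dropped below the log2 limit of 1, to -0.94, -0.67 and -0.86 without replicates 1, 2 and 3, with adjusted p-values up to 0.000312 by limma over all alternatives.

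Igfbp7 was among the tested genes only because its level in DDX6 KO was high, so its pooled log2 fold change of 2.10 (SE 0.97), or 2.13 (SE 0.66) with the replicate number as a block, is given without a test. Adgrg6, at -0.22 (SE 0.43, adjusted p = 0.723 by limma, 95% interval -1.13 to 0.68), and Ngfr, at -0.01 (SE 0.26, adjusted p = 0.982 by limma, 95% interval -0.56 to 0.54), did not pass. For both the knockouts lay on opposite sides of WT, and the sign of the pooled value depended on the setting.

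**Figure D2:**
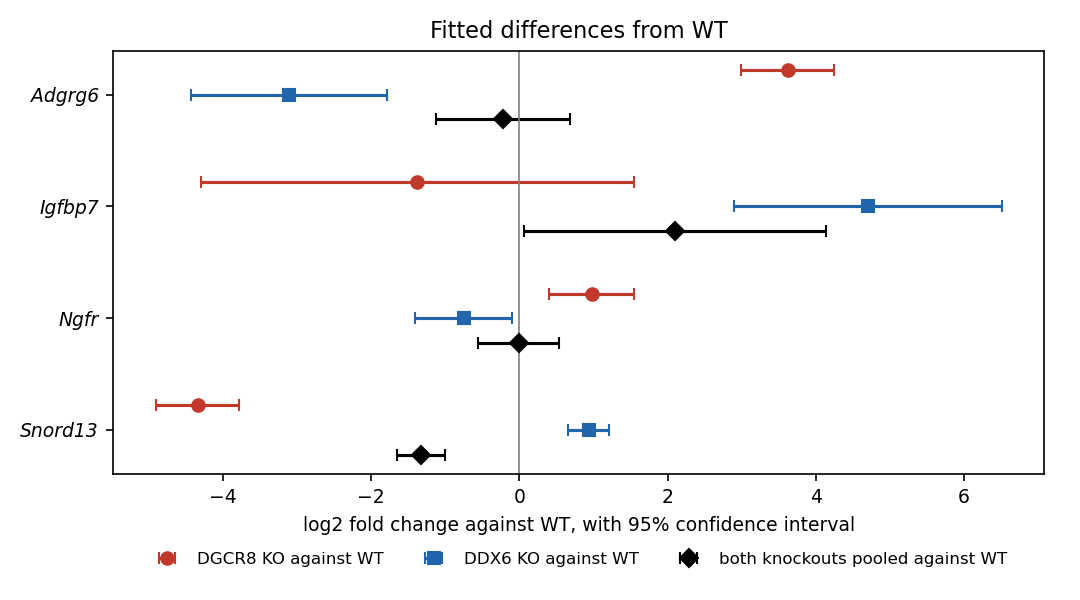
Fitted log2 fold change against WT (horizontal axis) with its 95% confidence interval for each gene, for DGCR8 KO (circles), DDX6 KO (squares) and both pooled by library number (diamonds). The knockouts lie on opposite sides of 0 for all 4 genes, with the DGCR8 KO interval of Igfbp7 spanning 0, and the pooled intervals of Adgrg6 and Ngfr also span 0. The pooled value of Igfbp7 is a description.

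The second test compared DDX6 KO clone 2 with clone 1. Over all tested genes 5, or 0.0428%, were called, and none of the 4 chosen genes was among them. At an unadjusted p under 0.05 there were 284 genes of all tested, again without the 4. The log2 differences were -0.51 (SE 1.15) for Adgrg6, 0.34 (SE 0.37) for Igfbp7, 0.02 (SE 0.47) for Ngfr and 0.12 (SE 0.17) for Snord13. With 2 libraries a clone the 95% intervals ran from -2.94 to 1.92 for Adgrg6, from -0.43 to 1.12 for Igfbp7, from -0.98 to 1.02 for Ngfr and from -0.23 to 0.48 for Snord13, so these clones are not shown to be alike.

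The receptors related to Adgrg6 moved both ways. Of 29 adhesion G protein-coupled receptor genes besides Adgrg6, 11 were tested. Between the knockouts 3 were called higher in DGCR8 KO and 3 lower, where 7.77% and 9.32% of all tested genes were called in those directions. The median log2 difference of the 11 was -0.13, beside 0.00 over all tested genes. Against WT, 3 were called higher and 1 lower in DGCR8 KO (8.93% and 5.81% of all tested genes), and 2 higher and 0 lower in DDX6 KO (7.55% and 3.66%). Adgra2, Adgre5, Adgrg1, Adgrg5 and Adgrl1 lie on chromosome 8, where the median over tested genes was -0.45 on the log2 scale in DGCR8 KO against WT. Adgrg5, which passed the minimum only through DGCR8 KO, stood at 14.5 CPM ± 6.39 (SD, n = 3) there against 0.301 CPM in WT and 0.270 CPM in DDX6 KO. Adgrl2, a latrophilin, rose by 2.49 on the log2 scale in DGCR8 KO (SE 0.22, adjusted p = 1.39e-07 by limma), from 16.6 to 92.5 CPM, and its relative Adgrl1 fell by 1.36 (SE 0.17, adjusted p = 5.36e-06 by limma). Adgrg1, a receptor for collagen III, rose in both knockouts, by 1.82 in DGCR8 KO (SE 0.39) and by 3.23 in DDX6 KO (SE 0.36).

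Of 14 genes for ligands of Adgrg6 and for its cAMP signal, 13 were tested. Between the knockouts 0 were called higher and 4 lower in DGCR8 KO (7.77% and 9.32% of all tested genes), with a median of -0.41. Those were Col4a1 and Col4a2, which encode chains of collagen IV, Lamb1, which encodes a laminin chain, and Gnas, which encodes the stimulatory G protein subunit. Col4a1 fell by 1.18 (SE 0.26) and Col4a2 by 1.43 (SE 0.40) in DGCR8 KO against WT, and both lie on chromosome 8 with its median of -0.45. Lamb1 fell by 1.08 (SE 0.23) in DGCR8 KO and rose by 1.16 (SE 0.16) in DDX6 KO, at 30.9 CPM in WT, 14.6 CPM in DGCR8 KO and 68.8 CPM in DDX6 KO. Lamc1, which encodes another laminin chain, differed by 0.32 (SE 0.10) between the knockouts and was not called. Prnp, whose product the prion protein is a further ligand, differed by 0.41 (SE 0.17) between the knockouts, not called, and was called higher in DGCR8 KO against WT by a log2 value just past the limit, as was the adenylyl cyclase gene Adcy9 at 1.26 (SE 0.38).

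Of 18 genes of the IGF axis besides Igfbp7, 11 were tested. Between the knockouts 2 were called higher and 2 lower in DGCR8 KO (7.77% and 9.32% of all tested genes), with a median of 0.02. Igfbpl1, a gene of the same family as Igfbp7, went the other way from it: it rose by 2.67 in DGCR8 KO against WT (SE 0.27, adjusted p = 5.41e-07 by limma), from 14.3 to 90.9 CPM, and stood at 11.4 CPM in DDX6 KO. Igfbp3 rose by 1.66 in DGCR8 KO (SE 0.34). In DDX6 KO against WT 0 of the 11 were called higher and 3 lower (7.55% and 3.66% of all tested genes), all of them binding proteins. Igfbp2 fell by 1.81 (SE 0.15), from 641 to 186 CPM, Igfbp4 by 1.20 (SE 0.36) and Igfbp5, whose mean was above 3 CPM in WT only, by 1.13 (SE 0.40). The same 3 were called lower in DGCR8 KO, beside 5.81% of all tested genes. Igf2, the ligand, and Insr, the insulin receptor, were the 2 called lower in DGCR8 KO than in DDX6 KO, by 1.62 (SE 0.27) and 1.22 (SE 0.24), and Insr lies on chromosome 8.

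Of 25 genes of the neurotrophin pathway besides Ngfr, 16 were tested. Between the knockouts 1 was called higher in DGCR8 KO and 0 lower (7.77% and 9.32% of all tested genes), with a median of 0.09. That gene was Prdm4, which encodes a zinc finger protein bound by the p75 receptor, at 1.03 (SE 0.15, adjusted p = 3.57e-05 by limma). Against WT, Sorcs2, which encodes a receptor of the sortilin family, rose by 2.34 in DGCR8 KO (SE 0.66), from 1.04 to 5.78 CPM, and stood at 2.47 CPM in DDX6 KO. Its mean was above 3 CPM in DGCR8 KO only, which favours a call of higher there, so its value is given without a test. Kidins220, which encodes a scaffold of neurotrophin receptors, rose by 1.46 in DGCR8 KO (SE 0.21) and Bex3, which encodes an adaptor of p75, fell by 1.20 (SE 0.11), while the ligand gene Ntf5 rose by 1.12 in DDX6 KO (SE 0.20).

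All 14 genes listed for the C/D snoRNA particle and for the acetylation of 18S rRNA were tested. Between the knockouts 0 were called higher and 1 lower in DGCR8 KO (7.77% and 9.32% of all tested genes). The latter was the assembly factor gene Znhit3 at -1.02 (SE 0.25, adjusted p = 0.00283 by limma). Nat10, the acetyltransferase gene, stood at 61.0 CPM in WT, 69.4 CPM in DGCR8 KO and 62.6 CPM in DDX6 KO. In DDX6 KO against WT 0 were called, beside 11.2% of all tested genes, although 7 had a lower level at an adjusted p under 0.05 with smaller fold changes.

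**Figure D3:**
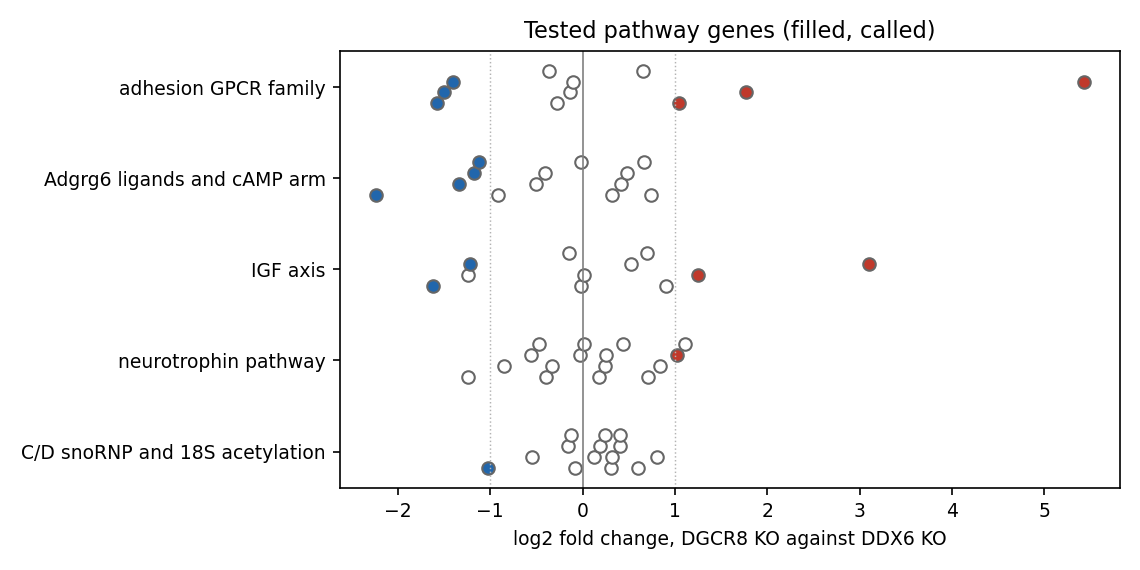
Log2 fold change of each tested list gene in DGCR8 KO against DDX6 KO (horizontal axis; dotted lines at -1 and 1), with genes called at an adjusted p under 0.05 filled in red (higher) or blue (lower). Called genes lie on both sides for the adhesion receptors and the IGF axis, on the lower side for the ligands and cAMP genes, and are 1 each for the neurotrophin pathway and the snoRNA particle.

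Snord13 was then set beside the other snoRNAs, a group picked after its values were seen, with no test of the group. Besides Snord13 the table listed 1526 genes annotated as small nucleolar or Cajal body RNAs, of which 305 had a count and 70 were tested. Between the knockouts 37 of the 70 (52.9%) were called lower in DGCR8 KO and 0 higher, beside 9.32% and 7.77% of all tested genes. Their median log2 difference was -1.35. Against WT 28 were called lower and 1 higher in DGCR8 KO (5.81% and 8.93% of all tested genes), with a median of -1.18. In DDX6 KO 15 were called higher and 3 lower (7.55% and 3.66%), with a median of 0.15. Some genes, such as Snora47 at 0.692, 1.19 and 7.80 CPM in WT, DGCR8 KO and DDX6 KO, had a mean above 3 CPM in DDX6 KO only. For these the minimum favours calls of higher in DDX6 KO. Others, such as Snora31 at 5.44, 1.01 and 2.45 CPM, had it in WT only. The 70 genes together held 2459 to 3057 CPM in the WT libraries, 798 to 1265 CPM in DGCR8 KO and 3404 to 4252 CPM in DDX6 KO, without overlap between the groups.

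Sorted by short exact patterns in their sequence, the snoRNA genes differed in these counts. Of 38 tested genes with an ACA box 3 bases before the end, 28 were called lower in DGCR8 KO than in DDX6 KO, with a median of -2.30. Snora41, Snora62, Snora20, Snora70, Gm24044 and Gm25291, among these 28, had a mean above 3 CPM in DDX6 KO only, so the minimum favoured that direction. Of 14 tested genes with a C box (TGATGA) in the first 35 bases and a D box (CTGA) in the last 15, read on the transcript strand, the kind of Snord13, 1 was called lower, with a median of -0.39. Over all tested genes 9.32% were called lower in this contrast. The remaining 18 held neither pattern, and 8 of them were called lower. Genes named as H/ACA or C/D snoRNAs, such as Snora47 and Snord35a, are among these 18, so the sorting is incomplete. Group means of the 14 C/D genes were at most 31.7 CPM, while those of ACA box genes reached 1571 CPM. The part of level in the counts of called genes was not tested. Over all 1558 annotated transcripts of this kind 20.1% held the C and D boxes and 19.3% the ACA box. Gm26205 stood at 1118 CPM in WT, 268 CPM in DGCR8 KO and 1571 CPM in DDX6 KO. Snord104, of the C/D kind and named after its values were seen, stood at 15.6, 4.95 and 9.79 CPM and was called lower in DGCR8 KO against WT. Mature snoRNAs carry no poly(A) tail, so the counts come from whatever ends the priming caught, and whether they follow the amount of mature RNA was not tested.

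**Figure D4:**
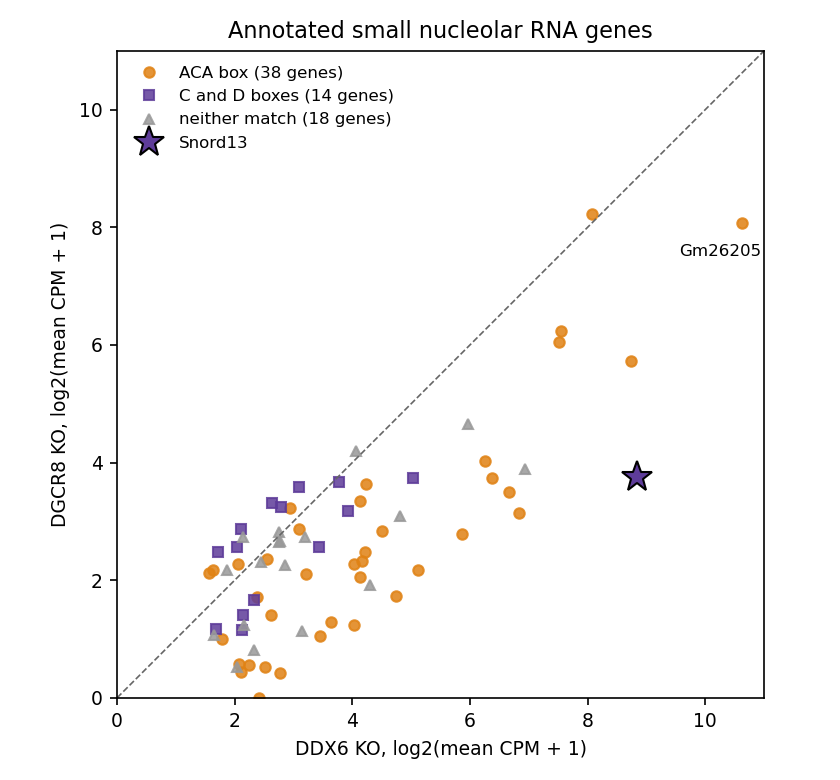
Mean level of the 70 other tested snoRNA genes and Snord13 (star) in DGCR8 KO (vertical) against DDX6 KO (horizontal), both as log2(mean CPM + 1), coloured by the box found in their sequence, with a dashed line of equality. Most ACA box genes and Snord13 lie below the line, while the 14 C/D genes lie nearer to it.

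Chromosome 8, which carries Snord13, stood lower as a whole in DGCR8 KO. The median over its 643 other tested genes of log2 CPM relative to WT was -0.44 ± 0.07 (SD, n = 3 libraries) in DGCR8 KO, whereas in DDX6 KO it was -0.01 ± 0.02 (SD, n = 4). The same medians of chromosomes 5, 10 and 11, which carry the other genes, were at most 0.05 in size in the means of either knockout. On chromosome 8, 77.4% of the tested genes had a negative log2 fold change in DGCR8 KO, and 1 lay lower than Snord13. The log2 fold change of Snord13 less the chromosome's median was -3.89. What part of its lower level goes with the chromosome was not tested further.

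The tested genes within 500 kb of Snord13 were 4, and they stood lower in DGCR8 KO than the chromosome's median. Tti2, which starts 348 bases from Snord13 on the other strand and encodes a partner of the PI3K-related kinases, fell by 1.54 on the log2 scale (SE 0.25, adjusted p = 0.000104 by limma). Fut10, a fucosyltransferase gene, fell by 1.89 (SE 0.30) and Mak16, a ribosome biogenesis gene, by 1.06 (SE 0.11), while Rnf122 at -0.99 (SE 0.32) lay just inside the limit. That made 3 of 4 called in DGCR8 KO against WT, beside 14.7% of all tested genes. None of the 4 was called in DDX6 KO, where 11.2% of all tested genes were, and where all 4 had values from -0.60 to -0.31 while Snord13 stood at 0.93. Over the 40 nearest genes, out to 5.21 Mb, the median was -0.36 in DGCR8 KO.

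**Figure D5:**
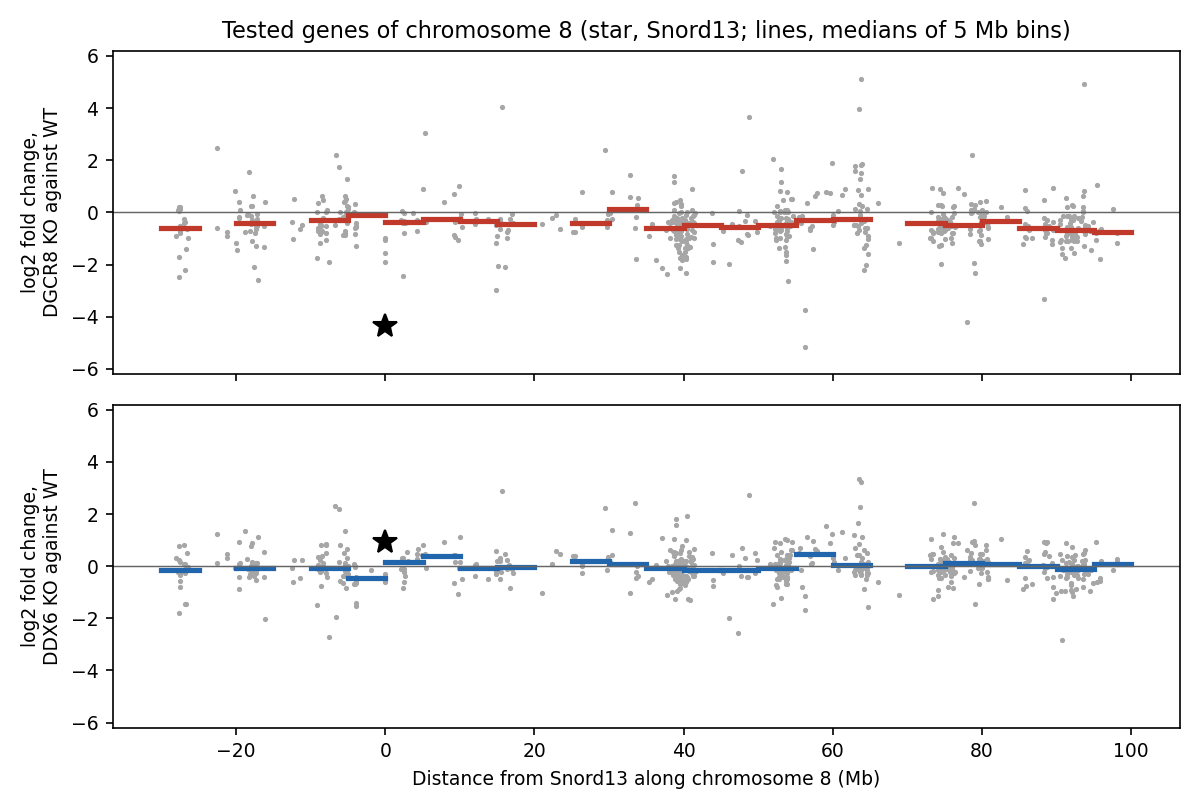
Log2 fold change against WT (vertical) of the 643 other tested genes of chromosome 8 by their distance from Snord13 in Mb (horizontal), in DGCR8 KO (top) and DDX6 KO (bottom); grey points are genes, coloured lines medians of 5 Mb bins with at least 10 genes, and the star Snord13. The bins lie below 0 along nearly the whole chromosome in DGCR8 KO and around 0 in DDX6 KO, and Snord13 lies far below the bins in the former and above them in the latter.

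The neighbours of the other genes were counted in the same way. Of 2 tested genes near Adgrg6, Hivep2, which encodes a zinc finger protein and lies 251209 bases away, rose by 2.61 in DGCR8 KO (SE 0.32, adjusted p = 5.59e-06 by limma), from 6.95 to 33.5 CPM, and Vta1 was not called. Over all tested genes 17.1% were called between the knockouts, 14.7% in DGCR8 KO against WT and 11.2% in DDX6 KO against WT. Of 8 near Igfbp7 none was called in any of the 3 contrasts. Of 12 near Ngfr none was called between the knockouts, and 2 were called in DGCR8 KO against WT, Spop at 1.01 (SE 0.15) and 4833417C18Rik at -1.30 (SE 0.49). The mean of 4833417C18Rik was above 3 CPM in WT only.

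Markers of other cell types were set beside the 4 genes. The 11 neural crest and glia markers summed to 126 to 145 CPM in WT, 186 to 235 CPM in DGCR8 KO and 153 to 232 CPM in DDX6 KO. Of 5 tested, Erbb3, Foxd3 and Pax6 were called higher in DGCR8 KO than in DDX6 KO and Sox1 lower (7.77% and 9.32% of all tested genes). Tfap2a, also tested, was not called between the knockouts, at -0.24 (SE 0.28), and stood at 16.1, 9.56 and 11.3 CPM in WT, DGCR8 KO and DDX6 KO. Foxd3 already stood at 58.8 CPM in WT and was not called in DGCR8 KO against WT, at 0.48 (SE 0.19). Adgrg6 and Ngfr, chosen by the contrast between the knockouts, were also higher in DGCR8 KO. Pax6, at 0.817, 4.88 and 0.713 CPM in WT, DGCR8 KO and DDX6 KO, had a mean above 3 CPM in DGCR8 KO only. Sox1, on chromosome 8, stood at 34.3, 20.5 and 91.5 CPM. Against WT it was called higher in DDX6 KO, at 1.37 (SE 0.20), and not called in DGCR8 KO, at -0.75 (SE 0.27). Erbb3, a receptor of Schwann cells, stood at 25.9 CPM in WT, 96.3 CPM in DGCR8 KO and 47.6 CPM in DDX6 KO, while Sox10, S100b and Gfap had at most 1 count in any library.

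Some markers were higher in DDX6 KO, as Igfbp7 was, and others were lower. The 12 fibroblast markers summed to 23.6 to 29.0, 14.6 to 26.6 and 21.0 to 30.4 CPM in WT, DGCR8 KO and DDX6 KO. Of 5 tested, Tagln was called higher in DDX6 KO against WT, at 1.73 (SE 0.51) and from 1.69 to 5.34 CPM. Its mean passed 3 CPM in DDX6 KO only. Col5a1, the most abundant of the 5, went the other way, from 15.6 to 8.16 CPM (-0.99, SE 0.28), just inside the limit. Pdgfrb at -0.43 (SE 0.45) and Acta2 at 0.94 (SE 0.52) were not called either. Tagln and Col1a1 were both called higher in DDX6 KO than in DGCR8 KO, as were 9.32% of all tested genes. Col1a1, at 1.88, 0.566 and 4.07 CPM in WT, DGCR8 KO and DDX6 KO, also had a mean above 3 CPM in DDX6 KO only. For both genes the minimum favours calls in that direction. Postn and Dcn had at most 1 count in any library. The 8 primitive endoderm markers summed to 8.69 to 13.4 CPM in WT, 4.07 to 6.45 CPM in DGCR8 KO and 17.4 to 24.5 CPM in DDX6 KO. Dab2, the only one of them tested, fell by 2.36 in DGCR8 KO (SE 0.65) and rose by 1.56 in DDX6 KO (SE 0.32), the order of levels that Snord13 had. It made up most of the sum in WT and DDX6 KO, at 6.29 and 16.6 CPM, and the others had group means of at most 1.87 CPM. Of these, Gata6 and Pdgfra were higher in DDX6 KO than in WT, Gata4 stood at 1.42 and 1.43 CPM in WT and DDX6 KO, and Sox17 and Foxa2 were lower. Sox7 had at most 1 count in any library.

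The 6 endothelial markers summed to 175 to 192, 334 to 375 and 113 to 145 CPM, most of it from Pecam1, which ESCs express. Kdr and Tek, which encode endothelial receptors, rose in DDX6 KO, from 3.03 to 12.8 CPM and from 2.05 to 9.28 CPM, and Tek was also called higher in DGCR8 KO. Cdh5 had at most 2 counts in any library. The 8 trophoblast markers summed to 34.4 to 52.8, 33.3 to 50.5 and 38.9 to 61.9 CPM. Of these the keratin genes Krt8 and Krt18 rose in DDX6 KO, by 1.94 (SE 0.40) and 1.29 (SE 0.35) on the log2 scale. Gata3 at -0.76 (SE 0.29) and Eomes at -0.12 (SE 0.29), which were also tested, did not rise there and were not called. Krt8 was also called higher in DGCR8 KO, and Elf5 had 0 counts. The part of such cells in the levels of the 4 genes was not tested, and in bulk RNA more cells of a type and more RNA per cell cannot be told apart.

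Other genes followed the same patterns over the 10 libraries, as described by Pearson's correlation of log2(CPM + 1), where the points share 3 groups that already differ. Adgrg6 was followed most closely by Pecam1 (r = 0.988), Ostm1 (r = 0.985) and Rab21 (r = 0.982). Pecam1, which encodes an adhesion molecule of endothelial and embryonic stem cells, stood at 177 CPM in WT, 341 CPM in DGCR8 KO and 103 CPM in DDX6 KO. Igfbp7 was followed by Fgf2 (r = 0.977), Gcc1 (r = 0.976) and Ets2 (r = 0.974). Ets2, a transcription factor gene, stood at 60.6, 56.0 and 126 CPM in the same order of groups. Ngfr was followed by Ubr4 (r = 0.989), Coa7 (r = 0.973) and Vangl1 (r = 0.969), and Snord13 by Gm26205 (r = 0.996), Bex2 (r = 0.989) and Cfap97 (r = 0.988), which also lies on chromosome 8. Among the 4 genes themselves, Adgrg6 and Ngfr had r = 0.90 and Adgrg6 and Snord13 r = -0.95.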

How the data were processed

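The authors trimmed reads with cutadapt 1.14, aligned them to mm10 with STAR 2.5.3a and counted uniquely mapped reads on the sense strand of Gencode genes with featureCounts 1.5.3, per the file headers, the labels and the study. The deposited values are uncorrected counts per gene and library. No molecular identifiers are stated, so floors cover counting error only. Here the counts were scaled by TMM (edgeR 4.0.16) and fitted with limma 3.58.1 (voom weights, empirical Bayes) in R 4.3.3 in 1 model of 3 groups, and the clones in a model of 4 groups. Code was tested on simulated data. The members and gene lists were chosen with earlier results of these data known. Named list genes were those called, at most 4 per list and contrast, besides neighbours within 500 kb and the 3 most like genes per member. Of 51467 genes 51274 matched a symbol. Libraries of a group differed by more than sampling noise. Same-numbered WT and DGCR8 KO libraries deviated together (r = 0.128, 0.249 and 0.259, against -0.237 to -0.0206 for other pairs), so the numbers were taken to pair them, and a fit with the number as a replicate block was run. Alternatives covered scaling, filter, test, weights and each library left out. Annotation and RNA sequences came from Gencode vM21 and RefSeq, both GRCm38. Some items are not reported here.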

Additional observations from a re-analysis of the deposited data

How the results depend on the processing

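For the pooled difference from WT, 1062 genes were called, 3881 by the adjusted p-value alone, and 780 to 1094 with 1 library left out, fewest without WT replicate 3. In that test Ngfr turned positive, at 0.060 with total counts, 0.051 with edgeR's quasi-likelihood test, 0.043 with DESeq2, 0.028 with limma-trend, 0.23 with the replicate block, 0.11 with equal weights, and 0.28 and 0.29 with DDX6 KO clone 1 or 2 alone. Adgrg6 turned positive at 0.39 with limma-trend, 0.26 with equal weights, and 1.04 (adjusted p = 0.0406) and 0.87 with clone 1 or 2 alone, where by construction fewer DDX6 KO libraries give DGCR8 KO more weight. With 1 library left out, Ngfr ran from -0.27 to 0.15, Adgrg6 from -0.84 to 0.65, Igfbp7 from 1.24 to 3.04 and Snord13 from -1.75 to -0.67. Igfbp7, described without a test, was 1.95 with edgeR, 2.05 with DESeq2 and 2.09 with limma-trend, and with 1 clone alone it missed the filter and has no value.

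Between clones, 5 genes were called, 3 to 5 with 1 library left out (a lone library is then assumed to vary like the others). Adgrg6 turned positive at 0.52 with edgeR, 0.56 with DESeq2 and 0.12 with limma-trend. With 1 library left out it ran from -2.29 to 1.49, Igfbp7 from -0.36 to 0.96, Ngfr from -0.18 to 0.26 and Snord13 from -0.056 to 0.32. The cause of these changes was not tested. The replicate block changed no call of Adgrg6, Ngfr or Snord13. Counts of called pathway and snoRNA genes (the latter added after the data were seen) stayed within 1.5 times under the 3 fits and each library left out.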
